A study of Mus musculus with 12 samples.

Results

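Cyclins, cyclin-dependent kinases (CDKs) and the mitotic kinases that act with them were followed in aging mouse testes. A gene was included when its symbol belonged to the Ccn, Cdk, Cdc25, Plk, Aurk, Nek or Bub families or was Mad2l1 or Ttk, and when at least 1 of its transcripts matched a reference gene model or shared its exons. This rule found 69 of 24516 genes and 202 of 71967 transcripts. The mice were C57BL/6, an inbred strain, and carried no engineered allele or treatment according to the labels. Total RNA from whole testis was sequenced at 3, 6, 12 and 18 months of age (3M, 6M, 12M and 18M), with 3 mice at each age and 1 library per mouse. Libraries are named by age and mouse number, as in 3M-1. The age groups were compared to learn which transcripts change as the testis ages. Whether the mice were littermates is unclear. A p-value here sets a difference with age against the spread between the mice used in that test.

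Cyclins switch CDKs on, and a rising or falling supply of cyclin drives a cell from one phase of its cycle to the next. Cdc25 phosphatases remove the phosphates that hold CDKs inactive, Polo-like, Aurora and NIMA-related kinases build and steer the spindle, and the checkpoint proteins hold back anaphase until chromosomes are attached. In the testis the same machinery serves the mitoses of spermatogonia and the meiotic divisions of spermatocytes, and it includes germ cell forms such as Ccna1. Other cyclins and CDKs act in transcription and splicing rather than in division.

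The libraries held 50924104 to 71803379 estimated reads, of which the 69 genes took 0.355% to 0.391%. Germ cell, Sertoli and Leydig markers were all detected, and no marker on any list was at 0. Leydig markers stood apart: all 7 were lower at 18M than at 3M at an unadjusted p of 0.05 or less, with a median log2 fold change of -0.94, and their summed level ran from 854 to 1026 CPM (read counts scaled to a library of 1e+06) at 3M and from 529 to 718 at 18M. The other lists had medians between -0.28 (peritubular and endothelial cells) and 0.13 (spermatids), with 2 of 7 spermatid markers higher and 1 of 8 spermatogonial and 1 of 6 peritubular and endothelial markers lower. Genes with a transcript of 5000 bases or more lay at a median of 0.00 to 0.07 log2 units from their mean over the 12 libraries in the 3M libraries and of -0.01 to -0.07 in the 18M libraries. Library 12M-3 stood apart from the other 12M libraries at -0.11, with genes under 2000 bases at 0.08. In whole tissue, fewer cells of a type and less RNA per cell cannot be told apart.

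All 69 genes were detected, over a range from 0.276 to 178.7 FPKM (fragments scaled by transcript length and library size, a level per length, summed over the transcripts of a gene and averaged over 12 mice). The median of the 69 genes was 8.17 FPKM, against 2.57 for all genes and assembled loci tested. In 28 genes the mean was 10 FPKM or more, in 31 it lay between 1 and 10, and in 10 it was below 1. The 10 highest genes made up 60.05% of the summed FPKM. Ccnk, which activates the transcription kinases Cdk12 and Cdk13, was highest at 178.7 ± 7.62 FPKM (SD, n = 12), followed by Ccni, a cyclin whose CDK partner is less clear, at 95.9 ± 3.86.

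**Figure D1:**
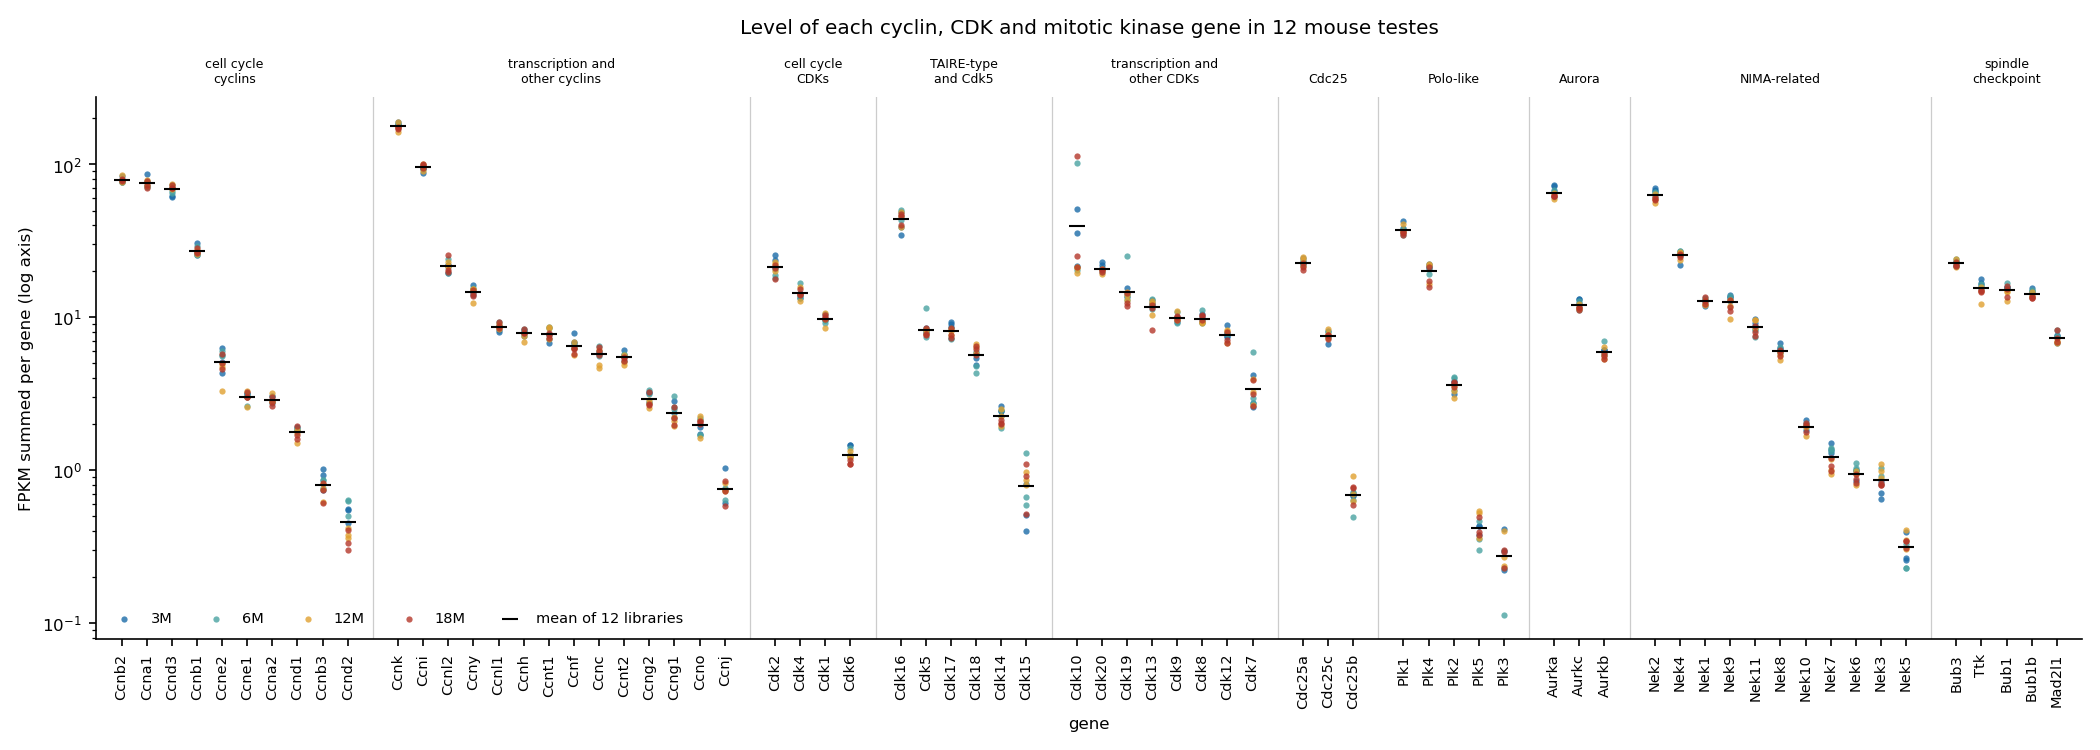
FPKM summed per gene (log axis) for each of the 69 genes, grouped by role and ordered by level within a role. Dots are single libraries colored by age and the black line is the mean of 12 libraries. Levels ran from 0.276 (Plk3) to 178.7 FPKM (Ccnk), and Cdk10 spread most widely between mice of the same age.

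Among the cyclins that drive division, 1 form of each type led. Ccnb2, a partner of Cdk1 in M phase, stood at 79.1 ± 2.68 FPKM, Ccnb1 at 27.1 ± 1.59 and Ccnb3, known for its expression in early meiosis, at 0.798 ± 0.118. Ccna1, the A-type cyclin of male meiosis, stood at 75.5 ± 4.56 FPKM and its somatic counterpart Ccna2 at 2.89 ± 0.163. The difference between Ccnb2 and Ccna1 (3.64 FPKM) was smaller than the spread of Ccna1 between mice. Within a library Ccna1 was 22.7 to 28.2 times Ccna2, and it was higher in 12 of 12 libraries.

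The D cyclins, which bind Cdk4 and Cdk6 early in the cycle, were unequal to a larger degree. Ccnd3 stood at 69.0 ± 4.30 FPKM, Ccnd1 at 1.79 ± 0.130 and Ccnd2 at 0.462 ± 0.114. The ratio of Ccnd3 to Ccnd2 lay between 106 and 231 (median 160). For the E cyclins, which activate Cdk2 at the start of S phase, Ccne2 exceeded Ccne1 by 1.29 to 2.31 times. Exons of Ccnd1, Ccnd3, Ccna2, Ccne2, Ccnc, Ccnf, Ccnt1, Cdk7 and Plk3 overlap exons of another gene in the reference models, and since the libraries keep no strand, reads there cannot be assigned with certainty.

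Among the cell cycle CDKs, Cdk2 was highest at 21.2 ± 2.31 FPKM, ahead of Cdk4 at 14.4 ± 1.11, Cdk1 at 9.81 ± 0.572 and Cdk6 at 1.27 ± 0.125. The Cdk2 sum includes assembled transcripts that share exons with the neighboring gene Rab5b, with means of 1.37, 2.77 and 1.37 FPKM. Reads there cannot be assigned to 1 gene with certainty. Cdk4 was 9.49 to 13.8 times Cdk6, its paralog. Cdk16, a PCTAIRE kinase needed for sperm formation, led the TAIRE-type CDKs at 44.2 ± 4.99 FPKM. Cdc25a, which acts on Cdk2 and Cdk1, stood at 22.8 ± 1.28 FPKM, Cdc25c at 7.62 ± 0.448 and Cdc25b at 0.695 ± 0.104.

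Of the spindle kinases, Aurka (centrosome and spindle poles) stood at 65.2 ± 4.17 FPKM, above Aurkc (12.0 ± 0.732), the germ cell member of the chromosomal passenger complex, and Aurkb (5.94 ± 0.466), its somatic counterpart. Aurkc was 1.60 to 2.29 times Aurkb and was higher in 12 of 12 libraries. Nek2, which separates centrosomes, led the NIMA-related kinases at 63.1 ± 4.42 FPKM, 4.39 to 5.62 times Nek1. Levels of Aurka and Nek2 differed by 2.11 FPKM, less than their spread. Plk1, a kinase of mitotic entry, stood at 37.3 ± 2.50 FPKM and Plk4, which starts centriole duplication, at 20.2 ± 2.42, with the remaining Polo-like kinases at 3.59 (Plk2), 0.423 (Plk5) and 0.276 FPKM (Plk3). The checkpoint genes were closer together: Bub3 at 22.6 ± 0.965, Ttk at 15.5 ± 1.36, Bub1 at 15.2 ± 1.08, Bub1b at 14.3 ± 0.779 and Mad2l1 at 7.38 ± 0.526 FPKM. The ratio of Bub1b to Bub1 ran from 0.862 to 1.07.

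Promoters of genes transcribed late in the cell cycle often pair CCAAT boxes with a cell cycle genes homology region (CHR, TTTGAA). RefSeq promoter windows of 300 bases (GRCm38.p6, 250 before to 50 after the start) were matched for 57 of the 69 genes, in 61 windows. On either strand TTTGAA occurred in 23.0% of these windows and in 17.9% of all 32851 windows, CCAAT in 52.5% and 37.4%, and both in 16.4% and 6.95%. The 9 genes with both were Aurka, Bub1b, Bub3, Ccnb2, Ccnf, Cdk1, Cdk16, Plk1 and Ttk. The stretches below show 4 of them, chosen after their values were seen because their log2 fold changes from 3M to 18M ran from 0.00 to -0.24, in the direction of transcription and with capitals marking both motifs on either strand (read backward, TTTGAA appears as TTCAAA and CCAAT as ATTGG). They are chr9:70421545-70421654 (minus strand, Ccnb2), chr10:69352913-69353012 (minus strand, Cdk1), chr17:24251410-24251569 (minus strand, Ccnf) and chr9:83834609-83834702 (plus strand, Ttk).
Ccnb2: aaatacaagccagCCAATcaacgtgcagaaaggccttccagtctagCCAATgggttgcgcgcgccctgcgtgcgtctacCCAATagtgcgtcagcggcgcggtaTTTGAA
Cdk1: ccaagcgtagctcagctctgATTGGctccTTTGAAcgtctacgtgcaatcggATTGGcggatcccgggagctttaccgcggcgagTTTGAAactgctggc
Ccnf: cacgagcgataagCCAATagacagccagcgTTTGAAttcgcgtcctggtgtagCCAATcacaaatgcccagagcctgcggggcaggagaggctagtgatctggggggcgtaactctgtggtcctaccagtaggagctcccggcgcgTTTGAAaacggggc
Ttk: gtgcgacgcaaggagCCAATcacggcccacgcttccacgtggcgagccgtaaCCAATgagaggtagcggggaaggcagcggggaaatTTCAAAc
These letters are a description of the windows and no measurement of binding. From 3M to 18M the log2 fold change was 0.00 ± 0.05 (SE) for Ccnb2, 0.00 ± 0.06 for Cdk1, -0.18 ± 0.05 for Ttk and -0.24 ± 0.08 for Ccnf. The 4 were chosen for this range, so it says nothing about the 9 genes with both motifs. Any link between motifs and age was not tested.

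Between 3M and 18M, no gene of the 69 passed an adjusted p of 0.05 in edgeR's quasi-likelihood test with Benjamini-Hochberg adjustment. Of all 24951 genes and assembled loci tested, 0.0641% passed. In the shares below, all genes means all genes and loci tested. At an unadjusted p of 0.05 or less there were 15 of the 69, of which 14 were lower and 1 was higher at 18M. That is 21.7% of the genes, against 12% of all tested. The lower ones alone were 20.3%, against 6.33% of all tested, and the higher one 1.45%, against 5.62%. The median log2 fold change of the 69 genes was -0.08 and that of all genes was 0.01. Without 18M-2 the 15 became 9 (13.0%, against 7.61% of all genes). In DESeq2, 1 of the 69 passed, Nek2, with a log2 fold change of -0.20 and an adjusted p of 0.0151 (0.0151 to 0.684 over all settings tried), beside 0.999% of all genes, and 17 had an unadjusted p of 0.05 or less, beside 9.43% of all. A difference of at least 1 log2 unit in either direction was fitted for none of the 69 genes, against 2.03% of all genes. The fitted change was below 0 in 41 of the 69, against 48.7% of all genes.

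**Figure D2:**
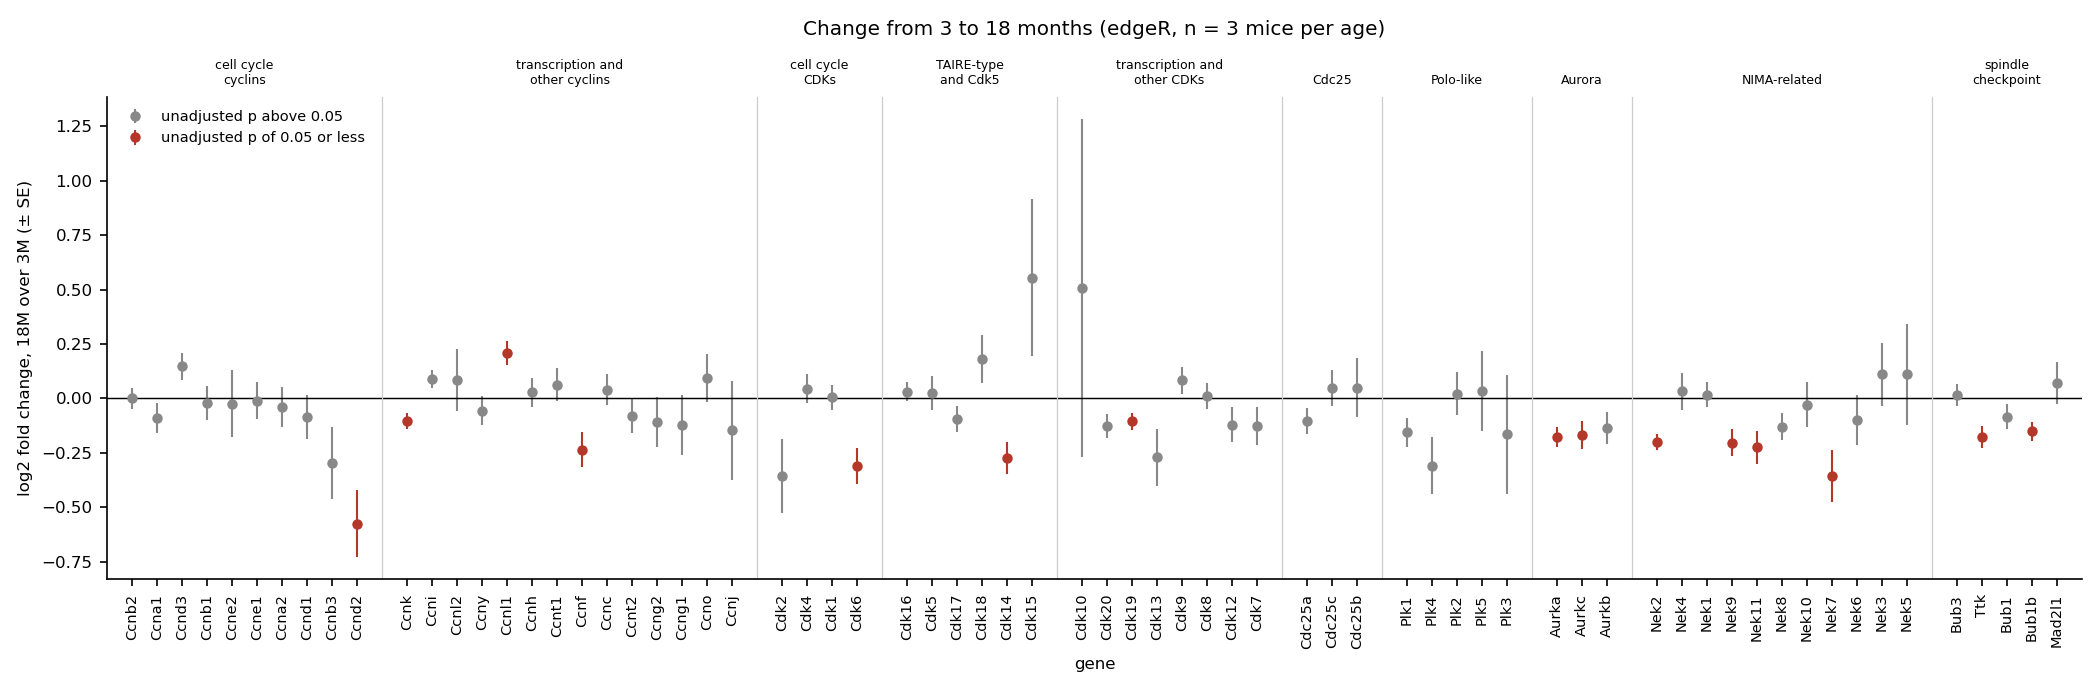
Log2 fold change from 3M to 18M with its standard error (edgeR, 3 mice per age) for each of the 69 genes, grouped by role. Red marks the 15 genes with an unadjusted p of 0.05 or less, of which 14 lie below 0 and 1 (Ccnl1) above, and no gene passed after adjustment.

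The 14 lower genes belonged to 8 of the 10 roles. They were 2 of 3 Aurora kinases (Aurka and Aurkc), 4 of 11 NIMA-related kinases (Nek2, Nek7, Nek9 and Nek11), 2 of 5 checkpoint genes (Ttk and Bub1b), 1 of 10 cell cycle cyclins (Ccnd2), 1 of 4 cell cycle CDKs (Cdk6), 1 of 6 TAIRE-type CDKs and Cdk5 (Cdk14), 1 of 8 transcription and other CDKs (Cdk19) and 2 of 14 transcription and other cyclins (Ccnf and Ccnk). No Cdc25 or Polo-like gene was among them. Median log2 fold changes ran from -0.17 for the Aurora kinases to 0.05 for the Cdc25 phosphatases. The 14 lower genes had a median longest transcript of 3433 bases and the other 55 genes one of 3114 bases. Among the 14 genes with transcripts of 5000 bases or more the median log2 fold change was -0.12, and among the 9 under 2000 bases it was 0.00. The genes of 5000 bases or more include the lower genes Ccnd2 (5771 bases), Cdk6 (11522), Cdk14 (5152), Cdk19 (8620) and Nek9 (5386). They also include Ccnl1 (7263), which was higher. Long transcripts of all genes also lay lower in the 18M libraries, as given above, and their part in these differences was not tested.

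Nek2 had the smallest p of all (chr1:191821473-191833049, plus strand, mm10). Its level was 234, 241 and 231 CPM in the 3M mice, 225, 224 and 204 at 6M, 205, 222 and 189 at 12M, and 209, 203 and 200.7 at 18M. The lowest 3M mouse was above every older mouse, and the 18M mice lay close together. The log2 fold change from 3M to 18M was -0.20 ± 0.04 (SE), with an unadjusted p of 0.00117 and an adjusted p of 0.329 in edgeR. It kept an unadjusted p of 0.05 or less in 17 of 17 settings.

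Aurka, which activates Plk1 and shapes the spindle poles, ran alongside. It stood at 138, 149.9 and 148 CPM at 3M, 140, 134 and 123 at 6M, 131, 136 and 120 at 12M, and 128, 128 and 128 at 18M. All 18M mice were below all 3M mice, while 6M mouse 1 lay within the 3M range. The log2 fold change was -0.18 ± 0.04 (unadjusted p = 0.00593, adjusted p = 0.358, edgeR). Aurkb and Aurkc were also lower in every 18M mouse than in any 3M mouse, with log2 fold changes of -0.13 ± 0.07 and -0.17 ± 0.06. The ratio of Aurka to Aurkb differed by -0.04 log2 units between the ages (exact permutation p = 0.6, adjusted p = 0.72, two-sided, n = 3 per age).

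Ttk, the kinase that starts checkpoint signaling at unattached kinetochores, stood at 51.7, 55.2 and 50.6 CPM at 3M and 47.3, 45.9 and 45.6 at 18M. Its lowest value was 37.5 CPM in 12M-3, against 46.6 and 49.5 in the other 12M mice. Bub1b, the checkpoint pseudokinase BubR1, stood at 58.6, 61.2 and 57.0 CPM at 3M and 53.8, 52.0 and 52.9 at 18M. In both genes the ages did not overlap, with log2 fold changes of -0.18 ± 0.05 and -0.15 ± 0.05 (adjusted p = 0.358 and 0.3595, edgeR). Bub1, which recruits BubR1 to kinetochores, was at -0.08 ± 0.06, Bub3, which anchors both, at 0.02 ± 0.05 and Mad2l1, which blocks the anaphase-promoting complex, at 0.07 ± 0.10.

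**Figure D3:**
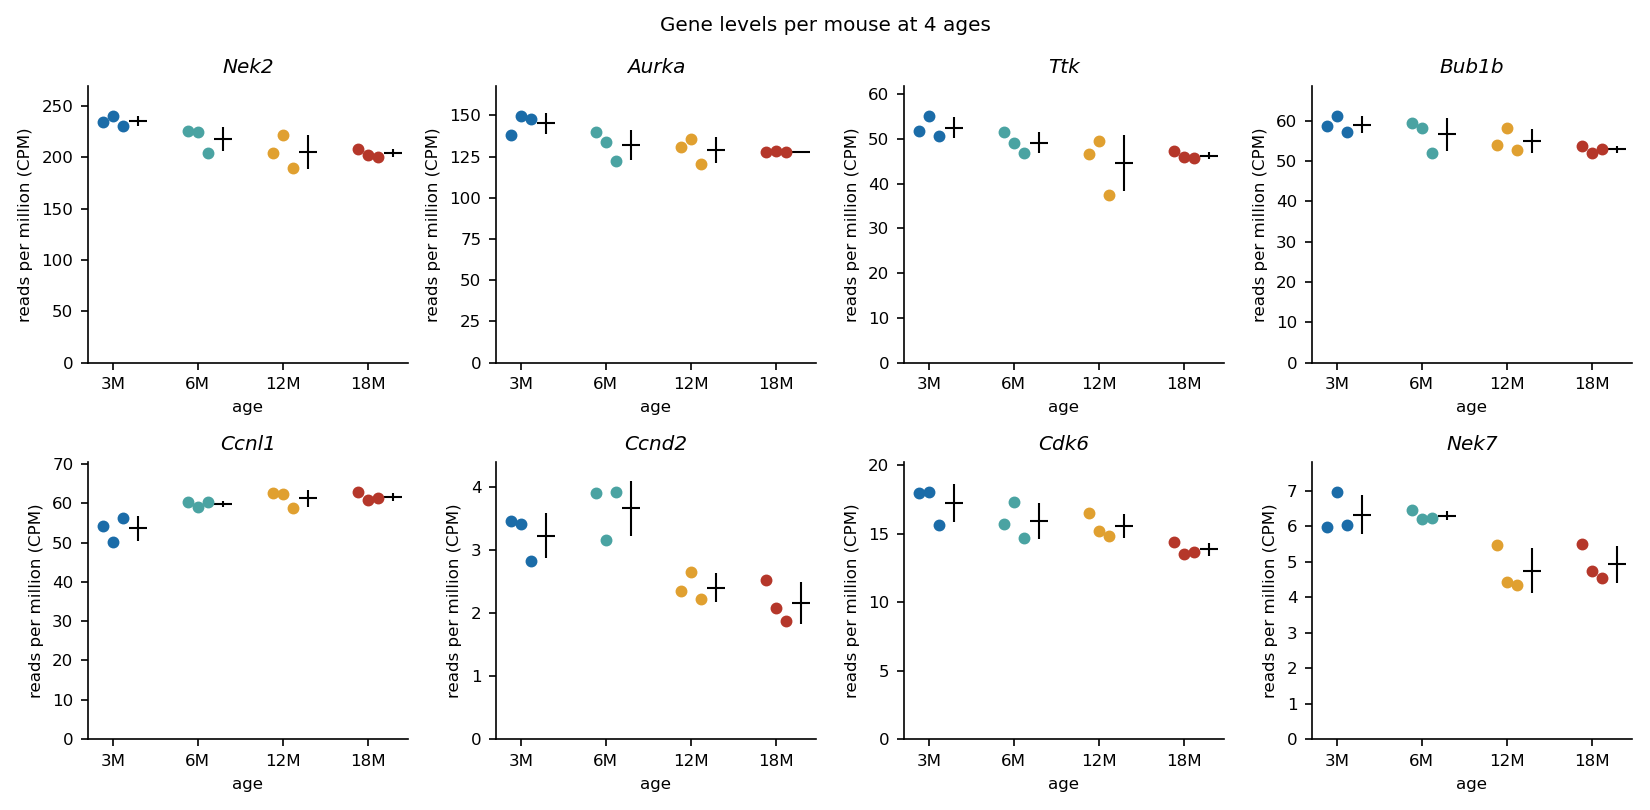
CPM per mouse (vertical axis, from 0) at the 4 ages for 8 genes. Colored dots are mice and the black line with bar is the mean with SD of 3 mice. In Nek2, Aurka, Ttk, Bub1b, Ccnd2, Cdk6 and Nek7 all 18M dots lie below all 3M dots, and in Ccnl1 they lie above.

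Ccnd2 had the largest fitted difference among the 15 genes. It stood at 3.45, 3.40 and 2.82 CPM at 3M, 3.90, 3.15 and 3.91 at 6M, 2.34, 2.65 and 2.21 at 12M, and 2.52, 2.08 and 1.86 at 18M. Every mouse of 12M or 18M was below every mouse of 3M or 6M. The log2 fold change from 3M to 18M was -0.58 ± 0.15 (unadjusted p = 0.00802, adjusted p = 0.358, edgeR), and the step from 6M to 12M was -0.61 ± 0.14 (unadjusted p = 0.00415, adjusted p = 0.649).

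Cdk6, the kinase partner of D cyclins, stood at 18.0, 18.1 and 15.6 CPM at 3M, 15.7, 17.3 and 14.7 at 6M, 16.5, 15.2 and 14.9 at 12M, and 14.4, 13.5 and 13.6 at 18M. The 18M mice were the 3 lowest of the 12. Nek7, a kinase of spindle assembly that also serves the NLRP3 inflammasome, stood at 5.99, 6.96 and 6.02 CPM at 3M, 6.45, 6.20 and 6.24 at 6M, 5.47, 4.42 and 4.33 at 12M, and 5.51, 4.73 and 4.53 at 18M. As in Ccnd2, the 2 younger ages lay above the 2 older ones without overlap. Cdk14, a CDK linked to Wnt signaling, stood at 12.9, 13.8 and 12.9 CPM at 3M and 10.5, 11.2 and 10.9 at 18M, but 2 of the 3 mice at 12M lay above the 18M range. Summed Leydig markers were also higher at the 2 younger ages, at 787 to 1286 CPM at 6M and 603 to 671 at 12M. Means of Cdk6 (15.9 and 15.6 CPM) and Cdk14 (11.7 and 11.9) at 6M and 12M showed no such step. Summed macrophage markers ran from 53.1 to 61.5 CPM at 6M, 38.4 to 51.7 at 12M and 42.6 to 56.6 at 18M. The remaining cell type lists overlapped between 6M and 12M. The part of any cell type in the values of Ccnd2, Cdk6, Nek7 and Cdk14 was not tested.

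Paralog ratios were read for the same genes. The ratio of Ccnd3 to Ccnd2 was higher at 18M by 0.72 log2 units, that of Cdk4 to Cdk6 by 0.37, and that of Nek2 to Nek1 was lower by a difference of -0.22. In each of these 3 pairs the ages did not overlap, which gives an exact permutation p of 0.1, the smallest that 3 against 3 mice allow (adjusted p = 0.4 over 12 pairs, two-sided). The other 9 pairs had an exact permutation p of 0.2 to 0.9, with differences between -0.12 (Plk4/Plk1) and 0.22 (Cdk1/Cdk2).

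All 12 mice, which include those of the comparison above, were then fitted with a slope over months of age. No gene of the 69 passed an adjusted p of 0.05 in edgeR (0.164% of all genes did), and 18 had an unadjusted p of 0.05 or less (26.1% of the genes, 15.2% of all tested), 16 with a negative and 2 with a positive slope. Negative slopes among these were 23.2% of the genes, against 8.38% of all tested, and the positive ones, Ccnl1 and Ccnd3, were 2.90%, against 6.85%. Ccnd2 came nearest to the threshold with -0.05 ± 0.01 log2 units per month (adjusted p = 0.101), followed by Cdk6 at -0.02 (adjusted p = 0.149) and Nek7 at -0.03 (adjusted p = 0.158). DESeq2 called these 3, with adjusted p-values of 0.00563 for Ccnd2, 0.0325 for Cdk6 and 0.0400 for Nek7, beside 1.86% of all genes. Over all settings the adjusted p ran from 0.00563 to 0.2995 for Ccnd2, from 0.0325 to 0.347 for Cdk6 and from 0.0400 to 0.347 for Nek7. Without 3M-2 the 18 genes became 9 (13.0%), near the 11.3% of all genes, and with reference transcripts alone they became 9, near the 10.8% of all genes.

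Single steps between neighboring ages held fewer differences. From 3M to 6M, 3 of the 69 genes had an unadjusted p of 0.05 or less (3.9% of all genes did): Cdk2 (-0.33 ± 0.08), Ccnl1 (0.16 ± 0.06) and Nek11 (-0.22 ± 0.08). Without transcripts that share exons with the neighboring gene Rab5b, the step of Cdk2 was -0.20 ± 0.13 (unadjusted p = 0.174, edgeR). From 6M to 12M there were 5 (7.47% of all genes), with Ccnd2 and Nek7 (-0.41 ± 0.12) joined by Ccng1, a p53 target that modulates growth arrest (-0.37 ± 0.11), Ccne2 (-0.40 ± 0.16) and Cdk18 (0.33 ± 0.13). From 12M to 18M only Nek11 was left (-0.19 ± 0.08, unadjusted p = 0.0497, 3.53% of all genes). No gene of the 69 passed after adjustment in any step, with an adjusted p of 0.649 or more in edgeR, where 0.0682%, 0.0401% and 0.016% of all genes passed in the order of the steps. DESeq2 called none of the 69 and 0.33%, 0.442% and 0.204% of all, and in it 3, 5 and 0 genes had an unadjusted p of 0.05 or less, against 2.9%, 6.05% and 2.67% of all genes. A test of any difference among the 4 ages called none in edgeR (0.0782% of all genes, with 8 of the 69 at an unadjusted p of 0.05 or less, 11.6% against 8.95% of all) and 1 in DESeq2, Ccnd2 (adjusted p = 0.00541, beside 1.22% of all genes).

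For Ccnb2 and Cdk1, a cyclin and CDK pair of M phase, the ages overlapped. Ccnb2 stood at 128, 126 and 138 CPM at 3M and 129, 133 and 129 at 18M, and Cdk1, its catalytic partner, at 32.0, 29.9 and 29.7 at 3M and 30.4, 29.6 and 31.5 at 18M. For Ccnb1 the log2 fold change was -0.02 ± 0.08, for Ccna1 -0.09 ± 0.07, for Ccna2 -0.04 ± 0.09, for Ccne1 -0.01 ± 0.08 and for Cdk4 0.04 ± 0.07. Plk1 stood at -0.15 ± 0.07 with an unadjusted p of 0.0529. In all, 19 of the 69 genes (27.5%) had every 18M mouse below every 3M mouse, against 10.5% of all genes tested, and 1 (1.45%), Ccnl1, had every 18M mouse above, against 9.15%.

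Further genes of the cell cycle were counted from a separate list of anaphase-promoting complex subunits, CDK inhibitors, chromosomal passengers, cohesin regulators and replication factors. Of the 58 listed, 54 were found and tested, and none passed after adjustment in edgeR. At an unadjusted p of 0.05 or less 5 were lower at 18M and 2 were higher, with a median log2 fold change of -0.02. Together these were 13.0% of the list, near the 12% of all genes tested. The lower ones were Anapc1, a scaffold of the anaphase-promoting complex (-0.21 ± 0.07), Incenp, the scaffold that holds Aurkb and Aurkc (-0.24 ± 0.07), Tpx2, the activator of Aurka (-0.12 ± 0.04), Espl1, the separase that cuts cohesin (-0.20 ± 0.06), and Top2a, which untangles chromosomes (-0.21 ± 0.07). The higher ones were Cdkn1a, the CDK inhibitor p21 (0.23 ± 0.10), and Ccnb1ip1, a ligase of meiotic crossing over (0.24 ± 0.09). The summed level of the list ran from 2671 to 2764 CPM at 3M and from 2647 to 2662 at 18M.

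Ccnl1, a cyclin of splicing-related kinases, was the only one of the 15 genes that stood higher at 18M. It stood at 54.3, 50.2 and 56.4 CPM at 3M, 60.2, 59.0 and 60.4 at 6M, 62.7, 62.4 and 58.8 at 12M, and 62.8, 60.9 and 61.4 at 18M. Every older mouse was above every 3M mouse, with a log2 fold change from 3M to 18M of 0.21 ± 0.06 (unadjusted p = 0.00771, adjusted p = 0.358, edgeR). The direction rested on the transcripts summed: with reference transcripts alone the log2 fold change was -0.67. Most of the FPKM of Ccnl1 came from assembled transcripts that start at position 65963196 of chromosome 3, upstream of the RefSeq start at 65958225 (minus strand). This start took 79.8%, 72.5% and 77.8% at 3M, 76.2%, 81.5% and 85.4% at 6M, 85.3%, 88.2% and 89.1% at 12M, and 81.9%, 89.98% and 87.3% at 18M. All shares at 12M and 18M were above all shares at 3M.

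Some of the 69 genes drew on starts outside RefSeq. Of the 17 genes with more than 1 start (starts over 500 bases apart), 10 drew most of their FPKM in the median library from starts that no reference transcript used. An assembled transcript led 15 of the 69 genes. The shares of all genes for these counts were not computed, so neither is a trait of this set. In Nek8, a kinase of the primary cilium, a start outside RefSeq took 93.3% to 99.0% of the FPKM. In 5 of the 17 genes a start had shares that did not overlap between 3M and 18M (exact permutation p = 0.1 each, the smallest possible, not adjusted): Ccnl1, Ccnd3, Cdk5, Cdk8 and Cdk18. Among all 5812 genes with more than 1 start, 15.6% held such a start. For Ccnd3 the start at 47590538 of chromosome 17, upstream of the main RefSeq start at 47593467, took 42.2% ± 0.930 (SD, n = 3) at 3M and 48.1% ± 2.65 at 18M. For Cdk5, a kinase known from neurons, a start upstream of the RefSeq start took 62.3% ± 4.22 and 70.7% ± 4.05.

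Cdk8, the kinase of the Mediator complex, drew 83.9% ± 6.04 of its FPKM at 3M and 92.8% ± 3.10 at 18M from starts between 146260898 and 146260993 of chromosome 5, inside the reference gene, which starts at 146231675. A separate assembled locus on the opposite strand, chr5:146260952-146262810, also carries the symbol Cdk8 but was left out of its sum. It lies at the same place and held 4012 to 9441 reads per library, and the libraries keep no strand. The summed level of Cdk8 did not follow the shares (log2 fold change 0.01 ± 0.06).

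**Figure D4:**
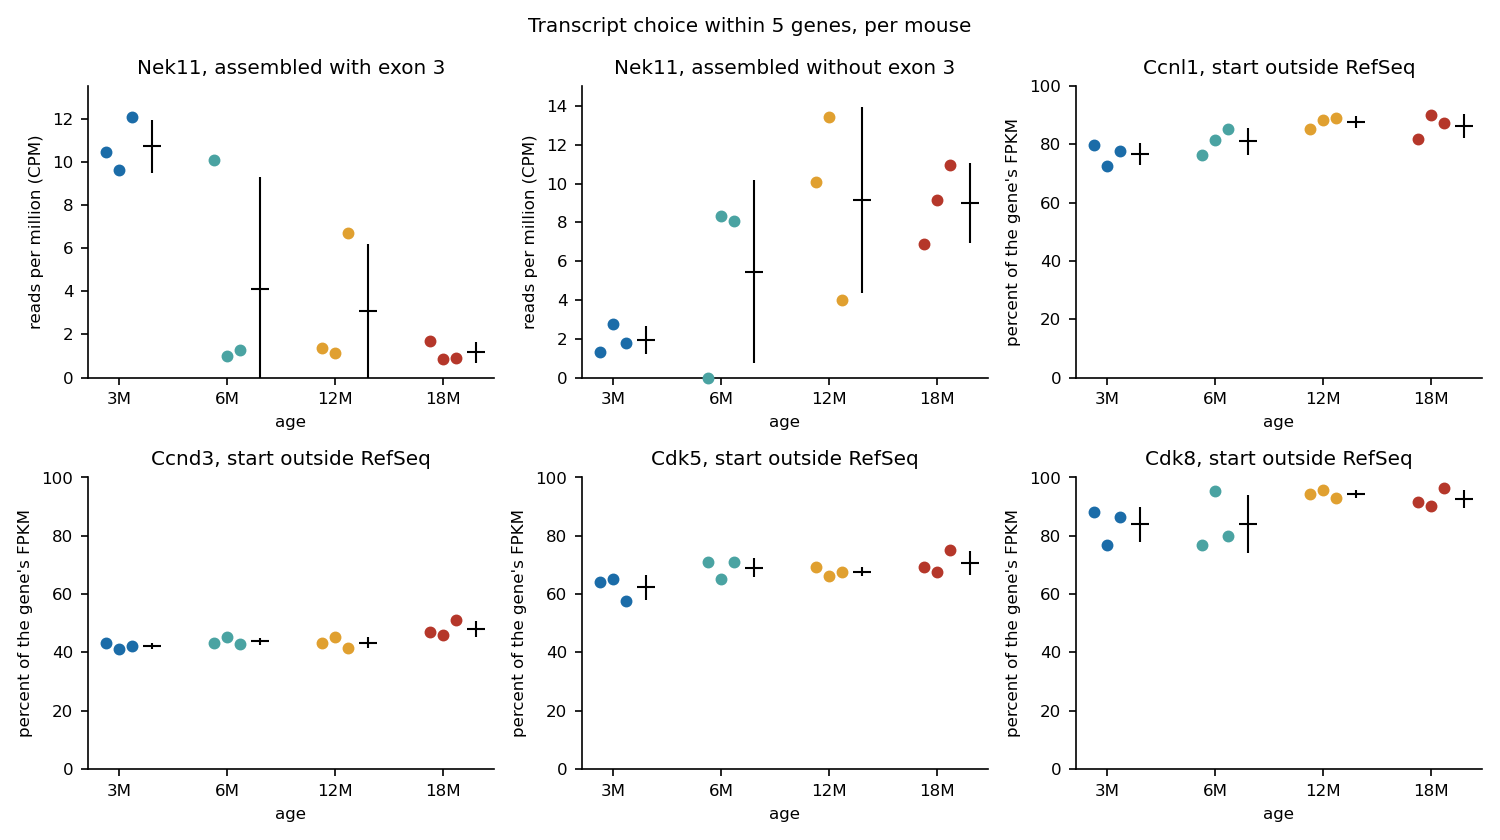
Transcript choice within 5 genes per mouse at the 4 ages. The first and second panels give CPM of the 2 assembled Nek11 transcripts, and the other 4 the percent of a gene's FPKM from a start outside RefSeq, with dots for mice and mean with SD in black (bars end at 0). The Nek11 transcript with exon 3 is high in all 3M mice and low in all 18M mice, and the one without it shows the reverse.

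At the level of single transcripts, 182 of the 202 were tested between 3M and 18M and none passed after adjustment in edgeR (0.108% of all transcripts did), with 17 at an unadjusted p of 0.05 or less (9.34%, against 5.4% of all), 8 lower and 9 higher. DESeq2 called 10 of these and 1 more that the filter of edgeR had left out, beside 3.16% of all transcripts. A DESeq2 unadjusted p of 0.05 or less with at least 1 log2 unit, the study's thresholds for transcripts, held for 15 of 200 (7.5%, against 4.93% of all). Only these thresholds were applied here, and the mRNAs that the study listed as changed between 3M and 18M include none of these genes. On the slope over age, 194 were tested, none passed in edgeR (0.0103% of all did), 20 had an unadjusted p of 0.05 or less (10.3%, against 7.15% of all), and DESeq2 called 5, beside 1.58% of all. Ccnd2, Cdk6, Nek2, Nek11 and Ccnd3 each had a transcript among these 5. Ccnd2, Cdk6 and Nek2 have 1 transcript each, so their transcript calls rest on the same reads as their gene sums.

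A shift between transcripts ran within Nek11, a kinase of the DNA damage checkpoint (chr9:105162467-105395287, minus strand). Exons were matched to the RefSeq transcript of 16 exons by exact coordinates. By this rule 2 assembled transcripts lacked exons 6 and 14. Of these, 1 also lacked exon 3 (chr9:105347973-105348138), a coding exon of 166 bases, which is not a multiple of 3. The same transcript had no match to the last exon, 16, so the 2 also differ at that end. Exon 3 is printed from the GENCODE transcript on the same build because it is the internal exon that tells these 2 transcripts apart. The exon is in capitals and 12 bases of each neighboring exon are in lower case.
Nek11: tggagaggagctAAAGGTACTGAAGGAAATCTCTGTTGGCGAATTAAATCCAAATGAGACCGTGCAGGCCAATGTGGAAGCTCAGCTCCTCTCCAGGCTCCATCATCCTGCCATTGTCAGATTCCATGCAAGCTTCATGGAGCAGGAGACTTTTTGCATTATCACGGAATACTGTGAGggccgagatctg
The transcript with exon 3 stood at 10.5, 9.63 and 12.1 CPM at 3M, 10.1, 0.991 and 1.28 at 6M, 1.37, 1.14 and 6.68 at 12M, and 1.71, 0.870 and 0.918 at 18M. The transcript without it stood at 1.297, 2.75 and 1.76 CPM at 3M, 0, 8.33 and 8.05 at 6M, 10.1, 13.4 and 3.998 at 12M, and 6.87, 9.13 and 10.97 at 18M. In both the ages 3M and 18M did not overlap, 6M-1 resembled the 3M mice, and 12M-3 lay in between. Log2 fold changes from 3M to 18M were -3.20 ± 0.34 (adjusted p = 0.102) and 2.21 ± 0.37 (adjusted p = 0.344) in edgeR, and DESeq2 gave adjusted p-values of 1.61e-20 and 5.09e-07. The RefSeq transcript stayed between 9.80 and 13.7 CPM in all 12 mice. The reads were shared out among transcripts by the assembler, so a transcript's value depends on that division, and the summed gene moved by -0.22 ± 0.08.

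In other genes the division of reads among transcripts differed between mice of the same age. The Plk4 transcript NM_011495 stood at 55.8 to 73.1 CPM in the 3M mice, 6M-2, 6M-3 and 18M-3, but at 0.197 in 6M-1, 0.743 in 12M-3 and 0.6995 in 18M-2, where an assembled transcript took 30.1, 41.4 and 47.2 CPM and was at 0 in the other libraries. A Cdk19 transcript, NM_001291816, was at 0 in all 3M mice and averaged 6.83 ± 7.43 CPM at 18M, a spread larger than its mean.

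Cdk10, a kinase that pairs with cyclin M, showed the widest spread of any gene, with a mean of 39.6 ± 33.4 FPKM. It stood at 134, 43.0 and 87.5 CPM at 3M, 254, 41.0 and 42.3 at 6M, 43.2, 41.1 and 43.0 at 12M, and 41.8, 54.6 and 279 at 18M. High values occurred in 3M-1, 3M-3, 6M-1 and 18M-3, so they did not go with age. They came from 3 assembled transcripts that carry the name Cdk10 but start at the neighboring gene Spata33 (from 123212786 of chromosome 8, while Cdk10 itself starts at 123224841) and share its exons. These took 11917 reads in 6M-1 and 18344 in 18M-3, the libraries where Spata33 was lowest, at 1820 and 4589 reads. In the other libraries Spata33 held 9008 to 22084 reads and the shared transcripts 522 to 5681. Transcripts from the start of Cdk10 held 944 to 1846 reads in every library.

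**Figure D5:**
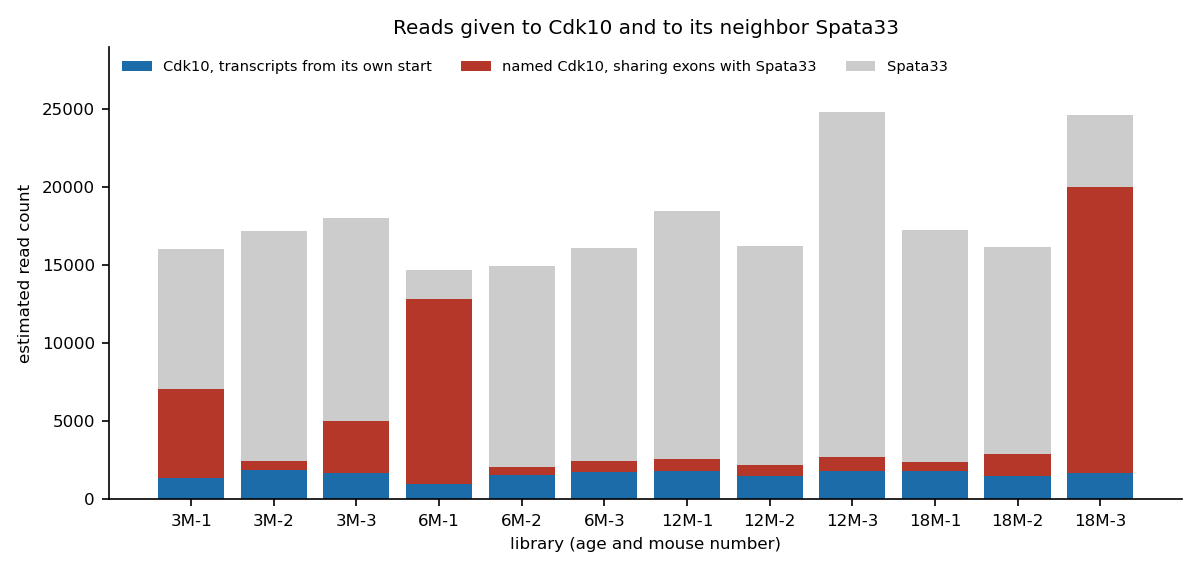
Estimated reads (vertical axis) per library given to transcripts from the start of Cdk10 (blue), to transcripts named Cdk10 that share exons with Spata33 (red) and to Spata33 (grey). The blue bars stay between 944 and 1846 reads, and the red bars are tall where the grey ones are short, in 6M-1 and 18M-3.

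Without the transcripts that share exons with another gene, the log2 fold change of Cdk10 from 3M to 18M was -0.07 in place of 0.51, and that of Cdk2 was 0.01 in place of -0.36. In Cdk2 the shared exons belong to Rab5b. Such transcripts numbered 11 in 5 genes, the others being Ccnl2 (Aurkaip1), Cdk9 (Mir2861 and Mir3960) and Ccnf (Mir5134). With them left out, 14 of the 69 genes had an unadjusted p of 0.05 or less between 3M and 18M in edgeR, 13 of them lower. That is 20.3%, against 11.5% of all genes in the same setting.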

How the data were processed

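RNA from the testes of 12 mice was sequenced with ribosomal RNA removed and no strand information. The authors aligned the reads to mm10 with HISAT2 and used StringTie 1.3.3b for assembly and quantification. The deposited table holds estimated counts per transcript (coverage times length over a read length of 101, rounded up) and FPKM, scaled by length and mapped fragments by the authors. Libraries were assigned to ages by their labels.

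Estimated counts of transcripts of class =, c, j and o were summed per gene, and edgeR 4.0.16 (R 4.3.3; TMM, filterByExpr, quasi-likelihood F-test, Benjamini-Hochberg over all genes and loci) tested each pair of ages on its own libraries, and a slope and any difference on all 12. The 69 genes passed the filter in each test. CPM use the same normalization. FPKM were used for levels, paralog ratios (exact permutation tests, scipy 1.17.1) and start shares. Alternatives were DESeq2 1.42.0, limma 3.58.1 on log2(FPKM + 0.1), other normalizations, filters, transcript classes and left-out libraries, and, chosen after seeing the data, leaving out transcripts that share exons with another gene. The tests were tried on simulated counts. Promoters came from RefSeq (GRCm38.p6), exon 3 of Nek11 from GENCODE vM21.

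The members and gene lists were chosen with earlier results of these data known. Named are genes called in any test, the 3 with the smallest p in each, the 10 highest, and the paralog and checkpoint genes. Others, named for a count, a start or a shared exon, were chosen after their values were seen, as were transcripts of Plk4.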

Additional observations from a re-analysis of the deposited data

Results flagged for a closer look

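Assembled loci inside introns of the reference models of members carry the member's symbol. They were left out of its sum because their class places them in such an intron. In 6 of them every library held more than the 3 reads that a count of 0 allows, which is why they are listed here. The locus in Cdk8 (MSTRG.16481) held a median of 4958 reads per library, and the one in Cdk14 (MSTRG.15046) 438.5. The Cdk8 locus begins at 146260952, among the starts of summed Cdk8 transcripts (146260898 to 146260993). Without strand information, reads there cannot be assigned with certainty. The loci in Nek11 held 178 (MSTRG.21360) and 46 (MSTRG.21359), that in Nek6 78 (MSTRG.11318) and that in Ccnd3 58.5 (MSTRG.9153). All 6 lie on the strand opposite to the gene in the assembled models.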

How the results depend on the processing

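Depth was not compared as a setting, and 3 mice per age limit what could be called. In edgeR and limma no gene of the 69 passed in any comparison under any setting, library left out or scaling tried. In DESeq2 the count was 1 for 3M to 18M, 3 for the slope and 1 for any of the 4 ages, 11 for transcripts from 3M to 18M and 5 for transcripts on the slope. At an unadjusted p of 0.05 or less the counts were 15 (3M to 18M), 3 (3M to 6M), 5 (6M to 12M), 1 (12M to 18M), 18 (slope), 8 (any age), 17 (transcripts, 3M to 18M) and 20 (transcripts, slope). The unadjusted count ran from 9 to 17 for 3M to 18M and from 9 to 20 for the slope over all settings, and the median of the 69 genes stayed below 0 in both. For 3M to 6M the count ran from 1 to 5. For 6M to 12M it was 3 without 6M-1 (4.348%, against 6.312% of all genes). For 12M to 18M it was 7 without 12M-3 (10.14%), where the share of all genes also rose, from 3.532% to 8.535%. For any age it was 13 without 12M-3 (18.84%, against 10.91% of all genes) and 4 without 18M-2 (5.797%, against 6.997%). The study's thresholds for transcripts, given above and applied alone, named 0 genes by their sums and, in a count added after seeing the data, 15 transcripts. With only the most abundant transcript of each gene, the differences in log2 ratio between 3M and 18M were -0.47 (Ccne2/Ccne1), 0.021 (Cdk1/Cdk2), 0.27 (Cdk4/Cdk6), -0.025 (Cdc25c/Cdc25a), -0.17 (Aurkc/Aurkb) and -2.54 (Plk4/Plk1), in place of -0.01, 0.22, 0.37, 0.13, -0.03 and -0.12, and the cause was not tested beyond the Plk4 transcripts above.

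Mice of different ages share numbers in the labels, but the numbers did not pair them: same-number correlations ran from -0.0393 to 0.0625 over 18 pairs, and 5 of 12 libraries correlated best with their own number. With the replicate number as a block, 0 genes passed, with 12 (3M to 18M) and 19 (slope) at an unadjusted p of 0.05 or less. These were 17.4% and 27.5% of the 69 genes, against 7.88% and 15.35% of all genes.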
